A study of Mus musculus with 24 samples.

Results

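The genes described here are the 86 genes whose level was higher in the libraries labelled KO than in those labelled WT in B cells and regulatory T cells (Tregs) alike, in lymph node and in tumour, outside the best-known families of early response and stress genes. They were chosen from measured values. CPM was taken as the count per 1000000 counts of the library, and a gene was kept where its mean was at least 5 CPM in each of the 8 groups and the ratio of the KO mean to the WT mean was at least 1.4 in all 4 pairs of groups. Genes whose names begin with Fos, Jun, Atf, Nr4a, Egr, Klf, Dusp, Hsp, Dnaj, Nfkb or Irf, or have a Gm number or Rik name, were set aside. Of 56791 genes in the table, 7817 reached the level in every group, 7061 remained after the name exclusions, and 86 (1.22%) passed the ratio. A further 35 genes passed the ratio and were set aside by name, and 43 genes met the mirror criterion of a KO mean at most 1/1.4 of the WT mean in all 4 pairs. Because the KO and WT levels chose these genes, their KO/WT ratios are a description and carry no test.

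Some of the 86, with 14 on the list of immediate early genes used below, belong to classes that lymphocytes switch on within minutes to hours of a stimulus. Such early response genes are usually short-lived messages with promoters held ready, and they code for transcription factors, inhibitors that close the same pathway again, enzymes of mRNA decay, and small regulators of kinases and GTPases. In B cells and T cells they are known from antigen receptor, cytokine and stress signalling, and they are also known to be induced by warming and enzymatic dissociation of tissue.

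Messenger RNA was sequenced in bulk from Tregs, the Foxp3-expressing suppressive T cells, and from B cells, sorted from the tumour or the draining lymph node of mice bearing B16-F0 melanoma. The libraries labelled WT came from Foxp3-Cre-YFP mice, and those labelled KO from Foxp3-Cre-YFP Appl2 f/f mice, so all 24 libraries share the Cre-YFP allele at Foxp3. That promoter is active in Tregs, and the sources used here name no Cre for B cells. The 8 groups (lymph node B, lymph node Treg, tumour B and tumour Treg, each KO or WT) held 3 libraries each. Sex and age of the mice, pooling of animals and whether replicates are separate animals are not given in the labels, so the spread between libraries may be technical.

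Appl2, the targeted gene, codes for an endosomal adaptor protein. In lymph node B cells it stood between 10.4 and 11.2 CPM under the KO label and between 21.2 and 26.2 CPM under the WT label. In tumour B cells the ranges were 10.7 to 15.8 and 42.5 to 57.2 CPM, and in tumour Tregs 20.5 to 26.5 and 53.7 to 62.0 CPM. In lymph node Tregs, however, it ran from 23.1 to 28.6 CPM under the KO label and from 19.6 to 27.3 CPM under the WT label, so that the ranges overlapped and the check went against the label. Appl2 was also lower under the KO label in B cells of each tissue, though no Cre is named for B cells. The source of that difference was not tested. Library labels rather than genotypes are therefore named throughout. Which exons the loxP sites flank is not given, and a count over the whole gene may include reads outside them.

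Depth ran from 6245822 to 16239055 counts per library. Foxp3 stood at 276 to 487 CPM (group means) in Tregs and at 7.36 to 10.98 CPM in B cells, and Ms4a1, the B cell surface protein CD20, at 288 to 510 CPM in B cells. The ends of the Treg range of Foxp3 were the labels of 1 pair, tumour Tregs, with 276 CPM (KO) and 487 CPM (WT). In lymph node Tregs it averaged 337 CPM (KO) and 364 CPM (WT). Ms4a1 was not absent from lymph node Tregs, where it averaged 25.9 CPM under the KO label and 6 CPM under the WT label. The chi-square per gene between replicates ran from 2.40 to 6.02 outside the tumour B cells and reached 10.5 within them, with replicate 1 of the KO group and replicate 2 of the WT group set off from the rest of the group. Results that rest on these libraries are also given without them, an alternative chosen after seeing the data. Melanoma cell marker genes, 11 in number, summed to 2935 CPM in tumour Tregs labelled WT and to 51.9 CPM in those labelled KO, and to 828 and 37.1 CPM in tumour B cells. Genes of the Hsp and Dnaj families took a larger share of counts under the KO label in every pair: in B cells 2.85 ± 0.04% and 2.36 ± 0.03% from lymph node and 5.57 ± 0.08% and 3.08 ± 0.05% from tumour, and in Tregs 4.18 ± 0.01% and 3.03 ± 0.02% from lymph node and 4.34 ± 0.03% and 3.01 ± 0.04% from tumour (SD, n = 3). Mitochondrial genes took 0.420 to 0.785% of counts (group means) under the KO label and 0.689 to 0.894% under the WT label, and the share was lower under the KO label in each pair. The part of melanoma RNA, of the heat shock genes and of the mitochondrial share in the differences described here was not tested. In bulk libraries, fewer cells that make a message and less message per cell cannot be told apart.

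RefSeq promoter windows (build GRCm38.p6) were on hand for 65 of the 86 genes, 90 windows in all. The 250 bases before the start site of Maff, Ppp1r15a, Gadd45b and Tob1 are shown as examples chosen after the search, since each window holds one of the classical elements of early response promoters and the values of each gene are described below. Capitals mark TGACGTCA, the letters of the cAMP response element, in Maff (the middle of its 3 windows, chr15:79347270-79347519, plus strand) and Ppp1r15a (chr7:45526269-45526518, minus strand), and TATAAA, the letters of a TATA box, in Gadd45b (chr10:80929841-80930090, plus strand) and Tob1 (chr11:94211204-94211453, plus strand). Each is written 5′ to 3′ on the strand of its gene.
Maff: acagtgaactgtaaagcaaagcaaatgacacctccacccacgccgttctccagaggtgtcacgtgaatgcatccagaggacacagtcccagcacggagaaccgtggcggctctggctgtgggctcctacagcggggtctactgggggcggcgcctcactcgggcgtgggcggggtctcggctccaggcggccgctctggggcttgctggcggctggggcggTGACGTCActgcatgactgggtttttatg
Ppp1r15a: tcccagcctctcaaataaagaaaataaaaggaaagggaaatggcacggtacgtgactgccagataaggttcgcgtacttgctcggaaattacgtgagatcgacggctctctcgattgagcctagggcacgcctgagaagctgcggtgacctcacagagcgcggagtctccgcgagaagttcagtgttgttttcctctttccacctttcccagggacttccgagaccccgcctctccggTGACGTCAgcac
Gadd45b: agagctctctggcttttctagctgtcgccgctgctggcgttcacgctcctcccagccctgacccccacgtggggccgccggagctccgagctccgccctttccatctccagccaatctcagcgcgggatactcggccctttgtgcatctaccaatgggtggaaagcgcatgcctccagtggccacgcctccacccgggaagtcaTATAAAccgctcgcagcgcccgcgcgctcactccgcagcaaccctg
Tob1: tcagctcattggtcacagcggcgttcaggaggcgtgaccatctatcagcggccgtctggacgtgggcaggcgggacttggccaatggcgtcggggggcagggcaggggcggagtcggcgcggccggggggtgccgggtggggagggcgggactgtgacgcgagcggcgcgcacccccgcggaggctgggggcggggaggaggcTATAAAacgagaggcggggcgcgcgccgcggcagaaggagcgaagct

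The capital letters begin 29 bases before the start in Maff, 12 in Ppp1r15a, 46 in Gadd45b and 47 in Tob1. Searched on both strands over 250 bases, TGACGTCA was present in 5 of the 90 windows (5.56%) and in 202 of the 7181 windows (2.81%) of the other genes that passed the level and name criteria. The other holders were Wsb1, Topors and Slc25a25. TATAAA was present in 9 windows (10%) against 5.71% of the others. GAANNTTC, the core of a heat shock element, was found in 7 windows (7.78%) against 4.76%, and TGANTCA, the AP-1 element, in 4 windows (4.44%) against 3.72%. An NF-kB element was present in 11 windows (12.2%) against 8.72%, and a CArG box, the element of serum response factor, in 1 window (1.11%) against 0.947%. A CArG box can hold TATAAA within it, so a stretch can count under both. Windows of 1 gene can overlap, and a match describes letters only. Base composition was close, with a median of 60.8% G and C in the windows of the 86 genes and 60.4% in the others.

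**Figure D1:**
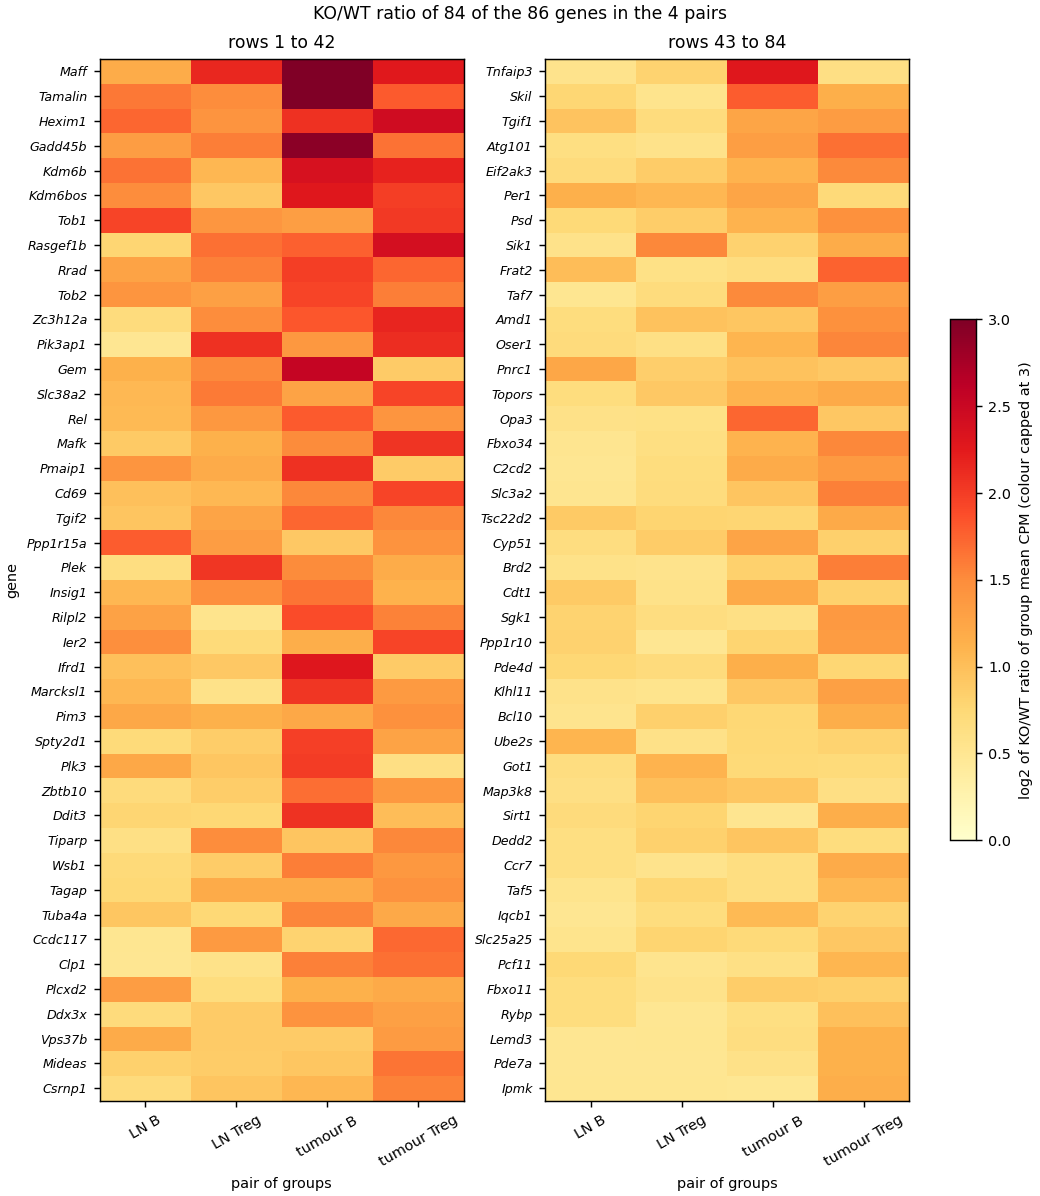
Colour gives the log2 ratio of the mean CPM of libraries labelled KO to those labelled WT (3 against 3) for 84 of the 86 genes (rows, in order of the mean ratio over the pairs) in the 4 pairs of groups (columns). Maff and Tamalin in tumour B cells exceed the colour scale, at ratios of 15.8 and 9.46, and the tumour columns are darker than the lymph node columns for most genes.

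The size of the difference varied widely among the 86 genes and between pairs. The ratio ran from 1.41 to 3.83 with a median of 1.68 in lymph node B cells, from 1.41 to 4.43 (median 1.82) in Tregs of lymph node, from 1.402 to 15.8 (median 2.29) in tumour B cells and from 1.54 to 5.45 (median 2.54) in tumour Tregs. Over all 7061 genes the median ratio was 0.977, 0.963, 0.872 and 0.937 in the same order, and 3.54%, 4.09%, 9.9% and 12.9% of these genes passed a ratio of 1.4. The lowest of a gene's 4 ratios was in lymph node B cells for 45 genes and in lymph node Tregs for 28. The highest was in tumour Tregs for 44 genes and in tumour B cells for 34. At a ratio of 2 or more in all 4 pairs stood 12 genes. Without the 2 tumour B libraries that stand apart the tumour B median was 2.24 and 83 of the 86 genes were selected.

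Together the 86 genes took 1.42 ± 0.02% of the counts of lymph node B cells under the KO label and 0.760 ± 0.004% under the WT label (SD, n = 3). The shares were 2.28 ± 0.02% and 0.932 ± 0.011% for tumour B cells, 1.495 ± 0.012% and 0.770 ± 0.006% for lymph node Tregs, and 2.12 ± 0.03% and 0.885 ± 0.007% for tumour Tregs. The KO and WT libraries of a pair did not overlap for any of the 86 genes in 3 of the pairs, and overlapped in tumour B cells for Tob1, Frat2 and Ipmk. Means at least 1.4-fold apart chose the genes, so this separation largely follows from the choice. The share of all genes without overlap was not counted. By edgeR's quasi-likelihood test all 86 were called higher (adjusted p under 0.05) in each pair, which follows from how they were chosen. Among all genes tested, 11% were called higher and 10.1% lower in lymph node B cells, 21.3% and 18.8% in tumour B cells, 13.8% and 11.5% in lymph node Tregs, and 27.3% and 27.2% in tumour Tregs.

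The transcription factors and coregulators were the largest group, with 13 genes and median ratios of 1.92, 1.88, 3.22 and 2.63 in lymph node B, lymph node Treg, tumour B and tumour Treg, the order of pairs used for every set of 4 ratios from here on. Maff, a small Maf protein that pairs with other leucine zipper factors and lacks an activation domain of its own, had the highest mean ratio of all 86. It stood at 16.3, 15.1 and 12.2 CPM under the KO label and at 5.78, 8.81 and 4.71 CPM under the WT label in lymph node B cells, and in lymph node Tregs at 54.5, 55.3 and 53.7 and 13.96, 11.9 and 11.1 CPM. In tumour B cells it stood at 163, 145 and 149 CPM under the KO label and 10.8, 8.81 and 9.36 CPM under the WT label, and in tumour Tregs at 122, 117 and 116 and 19.97, 23.7 and 30.1 CPM. The groups were far apart in every pair, and tumour B cells had both the widest gap and, under the WT label, one of the lowest levels. Its relative Mafk was higher throughout, with ratios of 1.86, 2.19, 2.85 and 4.16.

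Rel, the c-Rel subunit of NF-kB in lymphocytes, is one of these factors. Its libraries held 539, 510.1 and 503 CPM (KO) and 235, 254 and 259 CPM (WT) in lymph node B cells and 867, 921 and 871 and 239, 271 and 256 CPM in tumour B cells. In Tregs they held 330.1, 329.5 and 334 and 125, 131 and 125 CPM in lymph node and 260.4, 284 and 307 and 104, 109.9 and 105 CPM in tumour. The libraries of a pair were well separated, and the Treg levels under the KO label were within or above the range of the B cell levels under the WT label. Rela, another subunit and not one of the 86, had ratios of 1.07, 1.04, 1.10 and 1.90, and Relb 1.21, 1.19, 1.08 and 1.73.

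Of the genes that restrain TGF-beta signalling, Tgif1, Tgif2 and Skil were among the 86. Tgif1 and Tgif2, homeodomain repressors that bind SMAD proteins, had ratios of 1.94, 1.61, 2.38 and 2.53 and of 1.92, 2.39, 3.32 and 2.89. Skil, the SMAD corepressor SnoN, stood at 769.8, 763 and 769 CPM (KO) and 210.5, 233 and 222 CPM (WT) in tumour B cells but at 388, 376 and 364 and 267, 249 and 259 CPM in lymph node Tregs. The gap was wide in the former and narrow, though without overlap, in the latter. Its relative Ski had ratios of 1.20, 0.928, 1.01 and 1.46 and the inhibitory Smad7 1.15, 1.16, 0.780 and 1.76, so neither passed.

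Ddit3, the stress factor CHOP, had ratios of 1.72, 1.69, 4.19 and 2.02, Per1 of the circadian clock 2.199, 2.103, 2.37 and 1.65, and the early response gene Ier2 2.78, 1.63, 2.24 and 3.83. Ifrd1, a transcriptional coregulator, stood at 178, 151 and 185 CPM (KO) and 35.5, 35.5 and 33.7 CPM (WT) in tumour B cells, a ratio of 4.91 against 1.99, 1.88 and 1.85 in the other pairs. The nuclear protein Csrnp1 had ratios of 1.62, 1.93, 2.11 and 2.95, the zinc finger protein Zbtb10 1.62, 1.81, 3.22 and 2.63 and the leucine zipper protein Tsc22d2 1.87, 1.73, 1.71 and 2.31. Tumour B cells gave the highest ratio of 4 of these 7 genes, and tumour Tregs that of the other 3.

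The chromatin and transcription machinery group held 12 genes, with median ratios of 1.62, 1.77, 2.39 and 2.45. Hexim1 codes for the protein that, with 7SK RNA, holds the elongation kinase P-TEFb inactive. It stood at 225, 204 and 195 CPM (KO) and 64.03, 60.4 and 63.7 CPM (WT) in lymph node B cells, and at 208, 209 and 203 and 72.6, 76.8 and 80.8 CPM in lymph node Tregs. In tumour the values were 319, 336 and 344 and 78.1, 75.6 and 82.7 CPM in B cells and 380.4, 371 and 385 and 64.2, 69.7 and 74.5 CPM in Tregs. Every library labelled WT, of whichever cell type, fell between 60.4 and 82.7 CPM, and every library labelled KO between 195 and 385 CPM. The ratios were 3.32, 2.69, 4.23 and 5.45, the last the highest of all 86 genes in tumour Tregs. Its relative Hexim2 had group means of 1.02 to 2.57 CPM and so did not reach the level floor.

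Kdm6b, which removes methyl groups from lysine 27 of histone H3, had ratios of 3.14, 2.102, 5.18 and 4.54. It stood at 655, 690.2 and 701 CPM (KO) and 123, 158 and 114 CPM (WT) in tumour B cells and at 497, 472 and 513 and 112, 112 and 103 CPM in tumour Tregs. Its lymph node values were 334, 315 and 309 and 98.1, 110.1 and 96.4 CPM in B cells and 284, 289 and 277 and 130.3, 134 and 139.7 CPM in Tregs. All groups were apart, and the libraries labelled WT all lay between 96.4 and 158 CPM. Kdm6bos, annotated on the opposite strand, followed with 2.82, 1.89, 4.84 and 3.98, but 34% of its exon bases lie within exons of Kdm6b, and since the sources do not say whether counting used strand, reads of the pair could be shared. The related demethylase Kdm6a was not one of the 86, at 0.826, 1.37, 1.03 and 1.05.

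The bromodomain protein Brd2, which reads acetylated histones, was close to the threshold in lymph node (1.49 in B cells, 1.47 in Tregs) and stood at 1306, 1297 and 1299 CPM (KO) and 448, 416 and 432 CPM (WT) in tumour Tregs, a ratio of 3.01. Its relative Brd3 went the other way, with ratios of 0.804, 0.737, 0.537 and 0.594. The Polycomb protein Rybp had ratios of 1.596, 1.42, 1.56 and 1.99. Mideas, a scaffold of a histone deacetylase complex, gave 1.78, 1.82, 1.91 and 3.14 and the histone chaperone Spty2d1 1.63, 1.82, 3.93 and 2.41. The deacetylase Sirt1, the TFIID subunits Taf5 and Taf7 and the inner nuclear membrane protein Lemd3 had ratios between 1.41 and 2.86.

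Genes of mRNA processing, decay and translation numbered 10, with median ratios of 1.71, 1.84, 2.32 and 2.79. Tob1 and Tob2 code for antiproliferative proteins that bring the CCR4-NOT deadenylase to messages. Tob2 stood at 165, 160.1 and 165 CPM (KO) and 62.2, 62.6 and 59.8 CPM (WT) in lymph node B cells, and at 244, 249 and 227 and 66.6, 59.9 and 61.9 CPM in tumour B cells. Its Treg values were 199.8, 196 and 190.2 and 78.9, 75.9 and 82.4 CPM in lymph node and 194, 186 and 176 and 57.3, 64.4 and 63.1 CPM in tumour. Every library labelled KO held between 160.1 and 249 CPM of Tob2 and every library labelled WT between 57.3 and 82.4 CPM. Tob1 had the highest lymph node B ratio of all, 3.83, from 30.9, 32.2 and 34.2 CPM against 7.74, 8.72 and 8.97 CPM. In tumour B cells, however, its KO libraries held 57.1, 15.5 and 21.9 CPM and its WT libraries 7.498, 17.1 and 13.3 CPM. The groups overlapped there, and the KO mean rested on replicate 1, 1 of the 2 libraries that stand apart.

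Zc3h12a, the ribonuclease Regnase-1 that cuts cytokine messages, had ratios of 1.61, 2.82, 3.55 and 4.49 and reached 108, 96.3 and 87.2 CPM (KO) against 25.3, 19.6 and 19.96 CPM (WT) in tumour Tregs. Pnrc1, a nuclear receptor coregulator, had ratios of 2.35, 1.804, 1.95 and 1.87. Relatives of the Tob proteins were not among the 86. Btg1 gave 1.303, 1.11, 1.297 and 1.47, Btg2 1.73, 1.24, 1.65 and 1.58, and Btg3 1.32, 1.47, 1.55 and 1.71, so that Btg2 and Btg3 each passed the ratio in 3 pairs. Of the proteins that bind AU-rich elements, Zfp36 gave 1.99, 1.17, 1.16 and 1.47, Zfp36l1 1.36, 1.14, 0.747 and 0.718, and Zfp36l2 0.822, 0.866, 0.3998 and 0.965.

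Ppp1r15a, or GADD34, brings protein phosphatase 1 to the initiation factor eIF2 and so reopens translation after stress. Lymph node B libraries held 1755, 1684 and 1773 CPM (KO) and 515, 503 and 496 CPM (WT), and tumour B libraries 2448, 2648 and 2563 and 1343, 1379.6 and 1354 CPM. The gap was wide in lymph node, and in tumour the WT level was itself higher, with a ratio of 1.88 against 3.44 in lymph node. In Tregs the ratios were 2.51 in lymph node and 2.71 in tumour. Eif2ak3, the kinase PERK that phosphorylates eIF2 under endoplasmic reticulum stress, had ratios of 1.63, 1.82, 2.16 and 2.87. The RNA helicase Ddx3x gave 1.62, 1.85, 2.71 and 2.47. The cleavage factors Clp1 and Pcf11 and the phosphatase targeting subunit Ppp1r10 ranged from 1.41 to 3.19.

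**Figure D2:**
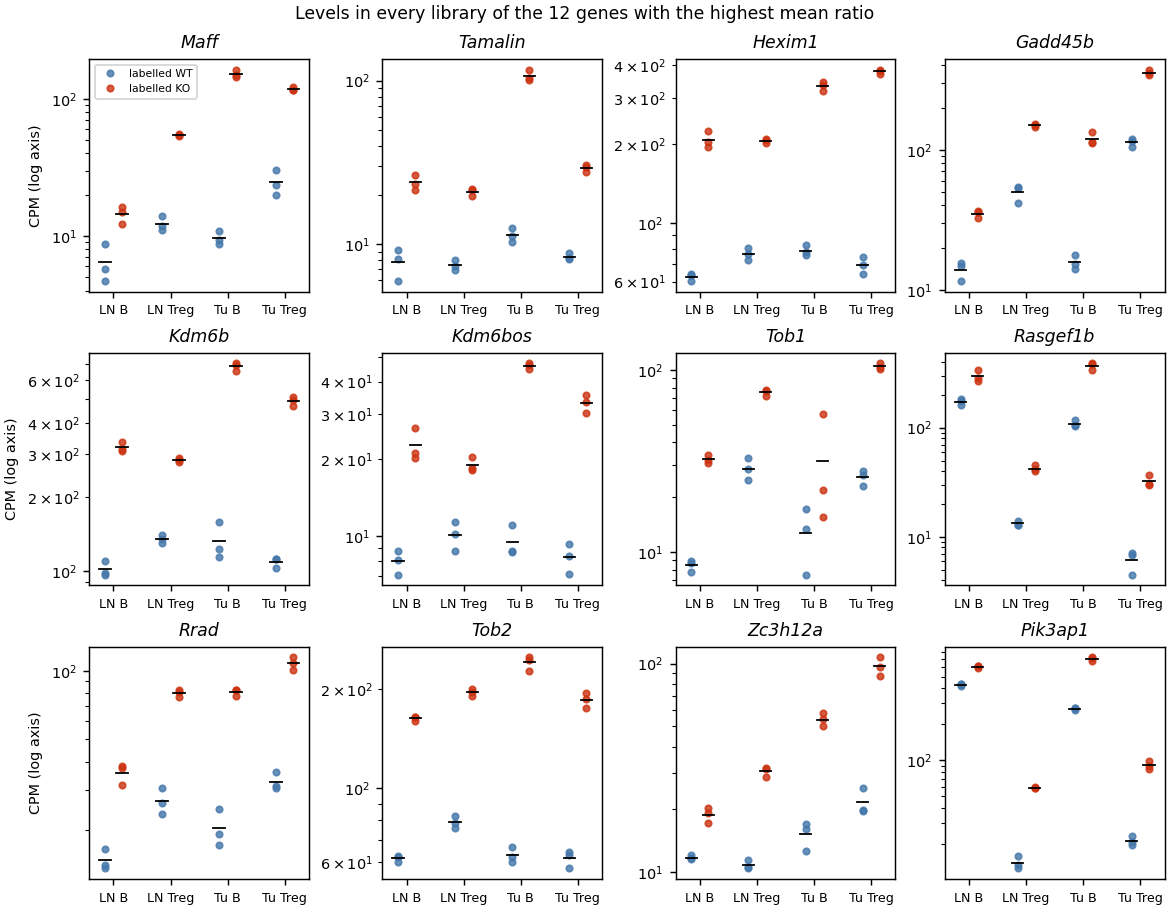
Each point is the level (CPM, log axis) of 1 library for the 12 genes with the highest mean KO/WT ratio, with 3 libraries labelled WT (blue) and 3 labelled KO (red) in each of the 4 pairs; black lines are group means. Red lies above blue in every pair except Tob1 in tumour B cells, where the groups overlap, and Pik3ap1 and Rasgef1b are far lower in Tregs than in B cells.

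Among the 8 genes of antigen receptor and NF-kB signalling and of the cell surface, the median ratios were 1.55, 2.05, 2.45 and 2.497. Tnfaip3, the ubiquitin-editing enzyme A20 that ends NF-kB signalling, stood at 137, 136 and 127 CPM (KO) and 87.8, 101 and 82.3 CPM (WT) in lymph node B cells. In tumour B cells it stood at 689.6, 642 and 683 and 142, 129.5 and 143 CPM. Treg levels were far higher, at 1441, 1439.5 and 1418 and 823, 822 and 824 CPM in lymph node and 2492, 2387 and 2491 and 1596, 1651 and 1517 CPM in tumour. The relative gap was widest in tumour B cells, at 4.87, against 1.47, 1.74 and 1.55 elsewhere. Bcl10, which links antigen receptors to NF-kB, and the kinase Map3k8 had ratios of 1.45, 1.79, 1.69 and 2.25 and of 1.55, 2.002, 1.904 and 1.55.

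Cd69, the early activation marker that holds lymphocytes in tissue, stood at 200.4, 202 and 205 CPM (KO) and 105, 99.8 and 101 CPM (WT) in lymph node B cells and at 184, 189 and 189 and 90.04, 87.98 and 90.2 CPM in lymph node Tregs. In tumour it stood at 337, 354 and 323 and 122, 109.99 and 120.2 CPM in B cells and 348, 383 and 362 and 95.5, 94.4 and 94.4 CPM in Tregs. The libraries labelled WT ranged from 88.0 to 122 CPM over all groups, with a log2 difference of Tregs against B cells of -0.23 in lymph node and -0.33 in tumour (edgeR, adjusted p = 0.00177 and 0.000547). Those labelled KO held 184 to 205 CPM in lymph node and 323 to 383 CPM in tumour. Tagap, a GTPase activating protein of activated T cells, gave 1.68, 2.29, 2.28 and 2.72 and Ccr7, the chemokine receptor that guides cells to lymph nodes, 1.56, 1.47, 1.57 and 2.28.

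Of the 86 genes, Pik3ap1, Plek and Rasgef1b had the largest differences between the cell types in the lymph node libraries labelled WT, with the lower level in Tregs. Being lower in Tregs was not particular to them, since 28 of the 86 were called lower in Tregs labelled WT in both tissues. Of all genes tested, 30.5% were called lower in Tregs in lymph node and 31.3% in tumour. The share called lower in both was not counted. Pik3ap1, the B cell adaptor BCAP that feeds PI 3-kinase, stood at 609, 591 and 613 CPM (KO) and 431, 422 and 433 CPM (WT) in lymph node B cells and at 58.4, 60.3 and 58.7 and 13.3, 15.996 and 12.5 CPM in lymph node Tregs. Tumour B cells held 680.01, 716 and 729 and 273, 275 and 266 CPM and tumour Tregs 89.8, 84.9 and 97.99 and 23.1, 20.7 and 19.7 CPM. The ratio was 1.41 in lymph node B cells, just inside the threshold, but 4.24 and 4.29 in the Tregs. Plek, or pleckstrin, a kinase C substrate of blood cells, had ratios of 1.57, 4.12, 2.84 and 2.27. Rasgef1b, an exchange factor for Ras-like GTPases, gave 1.72, 3.19, 3.39 and 5.28.

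B cell marker genes moved in the same Treg libraries. The 14 markers summed to 534 ± 14 CPM (KO) and 262 ± 13 CPM (WT) in lymph node Tregs, and to 227 ± 5 and 66.5 ± 1.2 CPM in tumour Tregs (SD, n = 3), with 14 of 14 higher under the KO label in each. No marker was at 0 in all 6 libraries of either pair. The rise of Pik3ap1 between the labels equalled 7.47% of the KO B cell level in lymph node and 9.84% in tumour, that of Plek 12.3% and 23.1%, and that of Rasgef1b 9.76% and 7.1%. For Pax5 the same share was 3.93% and 0.743%, and for Ms4a1 4.19% and 1.68%. The part of B cell RNA in the Treg ratios was not tested. In tumour B cells, T cell markers summed to 176 CPM (KO) and 55.6 CPM (WT), 13 of 15 higher under the KO label and none at 0 in all 6 libraries, against 5277 and 6008 CPM in tumour Tregs.

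Markers of other cell types moved with the label as well. The 12 markers of CD8 T and NK cells summed to 55.4 to 60.3 CPM (KO) and 6.40 to 8.80 CPM (WT) in tumour B cells and to 296 to 303 and 56.1 to 64.6 CPM in tumour Tregs, with 12 of 12 higher under the KO label in each. Macrophage and monocyte markers went the other way, at 47.2 to 55.4 (KO) and 215 to 228 CPM (WT) in tumour B cells, with 0 of 11 higher, and at 133 to 157 and 294 to 315 CPM in tumour Tregs, though 7 of 11 were higher there. The 8 plasma cell markers summed to 509 to 603 (KO) and 939 to 1128 CPM (WT) in tumour B cells but to 413 to 425 and 179 to 190.4 CPM in tumour Tregs. Stroma and endothelium markers were lower in sum under the KO label in all 4 pairs, with the widest gap in lymph node Tregs at 112 to 130 (KO) and 298 to 356 CPM (WT), 0 of 11 higher. The 9 dendritic cell markers reached 76.2 to 81.7 (KO) against 26.3 to 34.9 CPM (WT) in tumour Tregs, with 8 of 9 higher. In the pairs named here no marker of these lists was at 0 in all 6 libraries, except Glycam1 of the stroma list in both tumour pairs. The part of T cell RNA and of these other cell types in the KO/WT ratios was not tested.

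Small GTPases, cytoskeleton and trafficking genes, 10 in all, had median ratios of 2.14, 1.83, 3.32 and 2.56. Tamalin, a scaffold that binds exchange factors of Arf GTPases, had the next highest mean ratio after Maff. It stood at 26.6, 21.5 and 23.5 CPM (KO) and 8.09, 5.95 and 9.23 CPM (WT) in lymph node B cells and at 117, 101 and 104 and 10.3, 11.2 and 12.5 CPM in tumour B cells. Its Treg levels were 19.6, 21.7 and 21.5 and 8.03, 6.93 and 7.34 CPM in lymph node and 30.4, 27.7 and 29.5 and 8.12, 8.22 and 8.78 CPM in tumour. All libraries labelled WT lay between 5.95 and 12.5 CPM, and the tumour B libraries labelled KO stood far above all others.

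Gem and Rrad code for GTPases of the RGK family, which inhibit voltage-gated calcium channels. Gem stood at 711, 777 and 753 CPM (KO) and 133, 119 and 133 CPM (WT) in tumour B cells, but at 398, 432 and 424 and 226, 224 and 230.2 CPM in tumour Tregs. The ratio was 5.7995 in the former and 1.84 in the latter, with 2.18 and 2.87 in lymph node B cells and Tregs. Rrad gave 2.42, 2.97, 3.96 and 3.301. The Rab effector Rilpl2 had ratios of 2.44, 1.46, 3.72 and 2.96 and the actin-binding Marcksl1 2.09, 1.49, 4.14 and 2.57. Psd, an exchange factor for Arf6, gave 1.66, 1.82, 2.16 and 2.76, the ESCRT subunit Vps37b 2.27, 1.85, 1.84 and 2.55 and the tubulin Tuba4a 1.91, 1.67, 2.91 and 2.31. Iqcb1, a ciliary protein, ranged from 1.41 to 2.07.

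Kinases and genes of cAMP and inositol signalling, 9 in all, had the lowest median of all role groups in tumour B cells (1.74, 1.59, 1.76 and 2.26). Pim3, a survival kinase, had a narrow span of ratios, 2.34, 2.196, 2.33 and 2.74, from 21.2, 18.2 and 20.04 CPM (KO) against 8.003, 7.97 and 9.41 CPM (WT) in lymph node B cells to 25.6, 27.3 and 27.1 against 8.98, 11.1 and 9.18 CPM in tumour Tregs. Its relative Pim1 gave 1.76, 1.33, 2.83 and 1.70. Sik1, a kinase induced by cAMP, stood at 178, 176 and 169.6 CPM (KO) and 59.2, 58.4 and 64.1 CPM (WT) in lymph node Tregs, where its ratio of 2.88 was higher than the 1.48, 1.76 and 2.26 of the other pairs. The phosphodiesterases Pde4d and Pde7a, which degrade cAMP, had ratios of 1.69, 1.63, 2.22 and 1.701 and of 1.41, 1.42, 1.503 and 2.19. The polo-like kinase Plk3 gave 2.34, 1.9001, 3.999 and 1.54, the glucocorticoid-induced kinase Sgk1 1.74, 1.58, 1.53 and 2.603 and the GSK3-binding Frat2 2.02, 1.52, 1.58 and 3.36. Plcxd2 ranged from 1.59 to 2.52 and the inositol kinase Ipmk from 1.402 to 2.24.

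The ubiquitin and SUMO group held 7 genes with median ratios of 1.60, 1.56, 1.89 and 2.47. The ligase subunit Wsb1 and the SUMO and ubiquitin ligase Topors had ratios of 1.65, 1.83, 3.01 and 2.61 and of 1.599, 1.87, 2.16 and 2.2995. The conjugating enzyme Ube2s and the ligase adaptors Fbxo11, Fbxo34 and Klhl11 ranged from 1.44 to 2.89.

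Of 4 genes of cell death, the cell cycle and DNA damage, Gadd45b, a stress-induced activator of p38 signalling, stood at 32.8, 35.8 and 36.3 CPM (KO) and 11.6, 15.4 and 14.8 CPM (WT) in lymph node B cells and at 134, 113 and 111 and 14.003, 15.4 and 17.8 CPM in tumour B cells. In Tregs it stood at 146, 152 and 150.00 and 41.7, 53.4 and 54.2 CPM in lymph node and 373, 356 and 339 and 104, 116 and 119 CPM in tumour. The tumour B libraries labelled KO thus reached the level of tumour Tregs labelled WT. Gadd45a and Gadd45g, its relatives, were not among the 86, with ratios of 0.877, 1.80, 1.27 and 2.43, and of 0.645, 1.26, 0.993 and 1.77. Pmaip1, the BH3-only protein Noxa, gave 2.67, 2.28, 4.23 and 1.85, the replication licensing factor Cdt1 1.86, 1.49, 2.29 and 1.77 and the death effector domain protein Dedd2 1.56, 1.78, 1.93 and 1.59.

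Transport and metabolism contributed 9 genes. Slc38a2, the amino acid transporter SNAT2, had ratios of 2.09, 3.04, 2.41 and 3.84, from 242, 226 and 256 CPM (KO) and 63.2, 62.5 and 62.7 CPM (WT) in tumour Tregs to 194, 181 and 183 and 84.5, 85.1 and 97.7 CPM in lymph node B cells. Slc3a2, the heavy chain of the CD98 transporter, gave 1.43, 1.603, 1.92 and 2.97. Its partner Slc7a5 passed the ratio in 3 pairs and gave 1.11 in lymph node B cells. Insig1, the sterol sensor that holds back SREBP, had ratios of 2.11, 2.76, 3.14 and 2.17 and the sterol enzyme Cyp51 1.59, 1.83, 2.397 and 1.79. Insig2 went the other way, at 0.845, 0.771, 0.601 and 0.455. The aminotransferase Got1, the polyamine enzyme Amd1, the autophagy protein Atg101 and the mitochondrial proteins Opa3 and Slc25a25 ranged from 1.46 to 3.30. The remaining genes, the ADP-ribosyltransferase Tiparp and Ccdc117, Oser1 and C2cd2, ranged from 1.42 to 3.28.

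How the KO/WT difference varied between tissues was fitted over all genes as an interaction of label with tissue, separately in the 12 Treg and the 12 B cell libraries. Each ratio entered the choice of the genes, though their difference did not, and the same libraries were used, so these counts describe the set. Of the 7061 genes, more passed the ratio threshold in tumour (9.9% in B cells, 12.9% in Tregs) than in lymph node (3.54% and 4.09%). Genes chosen for being higher in every pair can therefore lean towards a larger difference in tumour. All genes tested were not chosen in this way, so their shares are no like background, and no excess is read from them. In Tregs the difference was larger in tumour for 55 of the 86 genes and smaller for 6 (edgeR, adjusted p under 0.05), against 16.8% and 17.3% of all genes tested. In B cells it was larger in tumour for 59 and smaller for 2, against 12.4% and 8.55% of all genes tested. The median difference of log2 ratios was 0.48 in Tregs and 0.60 in B cells, with -0.02 over all genes tested in each. Without the 2 tumour B libraries that stand apart the B cell counts were 59 and 3. Called larger in tumour in both cell types were 36 genes, which is 65.5% of the 55 and 61% of the 59, among them Hexim1, Kdm6b, Tob2, Zc3h12a, Cd69 and Brd2. With 55 and 59 of 86 called, an overlap of about this size would arise without any link between the cell types. The count is therefore no measure of agreement.

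In Tregs the largest interactions were those of Ier2 at 1.29 ± 0.13 (SE; adjusted p = 3.35e-10), Frat2 at 1.21 ± 0.2 (adjusted p = 7.49e-06), Kdm6b at 1.18 ± 0.072 (adjusted p = 1.54e-16), Atg101 at 1.17 ± 0.11 (adjusted p = 5.07e-11) and Clp1 at 1.16 ± 0.17 (adjusted p = 7.93e-07) on the log2 scale. Genes with the smaller difference in tumour Tregs were Plek at -0.799 ± 0.11 (adjusted p = 4.23e-07), Gem at -0.58 ± 0.07 (adjusted p = 1.3e-08), Got1 at -0.34 ± 0.11 (adjusted p = 0.0109), Per1 at -0.29 ± 0.089 (adjusted p = 0.0094), Sik1 at -0.28 ± 0.088 (adjusted p = 0.0101) and Pmaip1 at -0.24 ± 0.069 (adjusted p = 0.00603). In B cells Maff led with 2.995 ± 0.23 (SE; adjusted p = 4.74e-09), ahead of Tnfaip3 at 1.91 ± 0.1 (adjusted p = 2.67e-11), Tamalin at 1.81 ± 0.19 (adjusted p = 5.62e-07), Gadd45b at 1.79 ± 0.17 (adjusted p = 9.01e-08) and Gem at 1.601 ± 0.095 (adjusted p = 1.14e-10). In the other direction in B cells stood Ppp1r15a at -0.68 ± 0.069 (adjusted p = 3.22e-07). Its level under the WT label, the denominator of the ratio, was higher in tumour, so the 2 values are not separate results. Without the 2 libraries that stand apart these 6 genes kept their direction and call, with Maff at 2.902, Tnfaip3 at 1.86 and Ppp1r15a at -0.63. Gem and Plek were called in opposite directions in the 2 cell types.

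**Figure D3:**
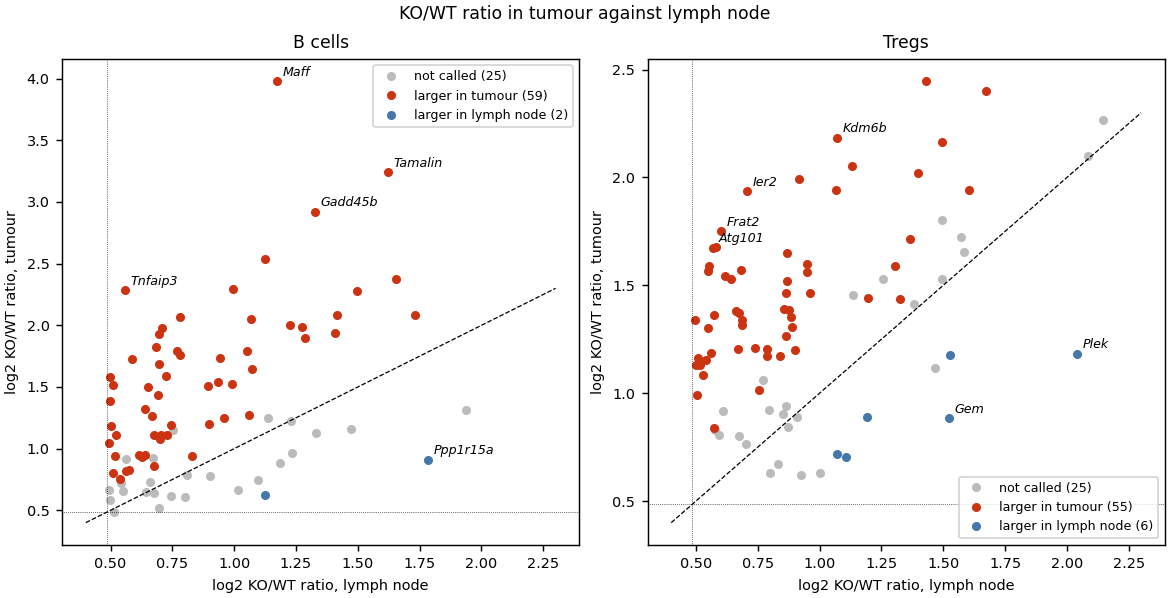
Each point is 1 of the 86 genes, with its log2 KO/WT ratio of mean CPM in lymph node (horizontal axis) and tumour (vertical axis), for B cells (left) and Tregs (right); colour marks the interaction call, the dashed line equal ratios and the dotted lines the ratio of 1.4 that every gene had to reach. Most points lie above the dashed line, with 59 called larger in tumour in B cells and 55 in Tregs, a lean that the choice of the genes can itself give.

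Between cell types the directions were mixed. In tumour the KO/WT difference was larger in Tregs for 21 genes and larger in B cells for 26, against 11.6% and 12.1% of all genes tested. Without the 2 tumour B libraries that stand apart these counts were 29 and 27. Ccdc117 at 0.81 ± 0.15 (SE; adjusted p = 0.000278), Ier2 at 0.69 ± 0.18 (adjusted p = 0.00832), Sgk1 at 0.68 ± 0.2 (adjusted p = 0.0134) and Brd2 at 0.67 ± 0.077 (adjusted p = 1.36e-06) were among the leading genes on the Treg side. Maff at -1.79 ± 0.17 (adjusted p = 8.22e-08), Tnfaip3 at -1.75 ± 0.081 (adjusted p = 1.26e-12), Gem at -1.75 ± 0.095 (adjusted p = 1.36e-11), Tamalin at -1.54 ± 0.16 (adjusted p = 2.96e-07) and Ifrd1 at -1.51 ± 0.11 (adjusted p = 1.7e-09) led on the B cell side. Without the 2 libraries Ccdc117 stood at 0.99, Ier2 at 0.93, Maff at -1.698 and Tnfaip3 at -1.695, with direction and call kept for all 9. All 4 genes of cell death, the cell cycle and DNA damage were called larger in tumour B cells.

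In lymph node 16 genes were called larger in Tregs and 12 in B cells, against 6.95% and 3.69% of all genes tested. Pik3ap1 at 1.597 ± 0.089 (SE; adjusted p = 4.19e-16) and Plek at 1.404 ± 0.1 (adjusted p = 1.21e-12), the B cell-rich genes, led on the Treg side, followed by Maff at 0.995 ± 0.21 (adjusted p = 0.00129), Sik1 at 0.97 ± 0.091 (adjusted p = 4.48e-10) and Rasgef1b at 0.899 ± 0.12 (adjusted p = 4.08e-07). Ier2 at -0.76 ± 0.13 (adjusted p = 7.14e-05), Rilpl2 at -0.73 ± 0.092 (adjusted p = 2.87e-07), Plcxd2 at -0.66 ± 0.15 (adjusted p = 0.00248), Kdm6b at -0.57 ± 0.075 (adjusted p = 6.06e-07) and Tob1 at -0.52 ± 0.15 (adjusted p = 0.0184) led on the B cell side. Pim3, Pde4d, Taf5 and Slc25a25 were called in none of the 4 interactions.

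The levels in the libraries labelled WT had to reach the floor in every group and were the denominator of every ratio, so comparing them between tissues and cell types is not independent of the choice of the genes, and the counts are a description. In B cells 30 of the 86 were higher in tumour than in lymph node and 5 lower (edgeR, adjusted p under 0.05), against 15.7% and 14.3% of all genes tested. The counts were 29 and 6 without the 2 tumour B libraries that stand apart. Ppp1r15a at 1.39 ± 0.047 (SE; adjusted p = 6.72e-14), Sgk1 at 0.99 ± 0.22 (adjusted p = 0.00166), Per1 at 0.91 ± 0.087 (adjusted p = 1.83e-07) and Ifrd1 at 0.89 ± 0.11 (adjusted p = 5.15e-06) were among those that rose most on the log2 scale, and Rasgef1b at -0.703 ± 0.07 (adjusted p = 3.23e-07), Pik3ap1 at -0.700 ± 0.051 (adjusted p = 4.73e-09), Mideas at -0.66 ± 0.051 (adjusted p = 9.64e-09), Plek at -0.46 ± 0.065 (adjusted p = 2.14e-05) and Marcksl1 at -0.39 ± 0.075 (adjusted p = 0.000563) fell.

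In Tregs labelled WT 30 of the genes were higher in tumour and 22 lower, against 21.4% and 19.9% of all genes tested. Plek at 2.62 ± 0.1 (SE; adjusted p = 1.26e-20), Got1 at 1.78 ± 0.088 (adjusted p = 7.52e-18), Cyp51 at 1.45 ± 0.11 (adjusted p = 1.65e-12), Insig1 at 1.27 ± 0.13 (adjusted p = 6.57e-10) and Plk3 at 1.195 ± 0.1 (adjusted p = 1.63e-11) rose most. Ccr7 at -1.696 ± 0.1 (adjusted p = 1.8e-15), Zbtb10 at -1.57 ± 0.12 (adjusted p = 1.72e-12), Frat2 at -1.32 ± 0.18 (adjusted p = 2.08e-07), Rasgef1b at -1.12 ± 0.18 (adjusted p = 5.96e-06) and Spty2d1 at -0.87 ± 0.054 (adjusted p = 3.46e-15) fell most. Higher in tumour in both cell types were 17 genes, 56.7% of each list, including the NF-kB inhibitor Tnfaip3, the amino acid transporters Slc38a2 and Slc3a2, and Eif2ak3. The same overlap over all genes tested was not counted. Of the 12 chromatin and transcription machinery genes none was called higher in tumour Tregs and 5 were lower, Kdm6b and Brd2 among them. The KO/WT ratios of Kdm6b and Brd2 were larger in tumour Tregs. The WT level is the denominator of that ratio, so a lower WT level in tumour itself raises it, and these are not separate results. Tumour libraries labelled WT also held the melanoma marker RNA given above, and its part in these differences was not tested.

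**Figure D4:**
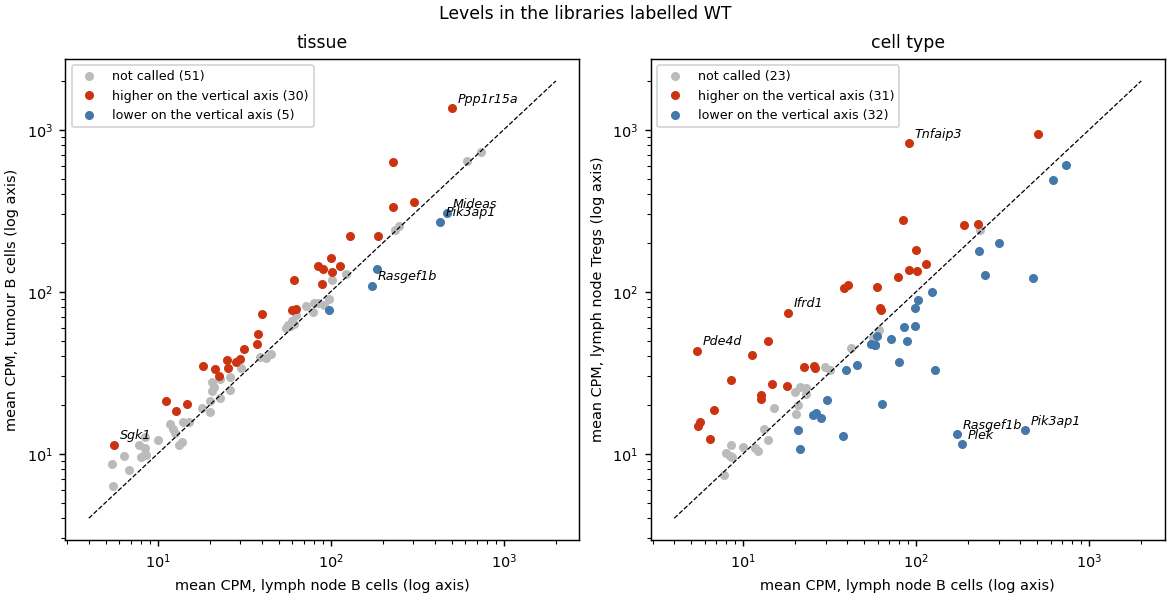
Mean CPM (log axes) in the libraries labelled WT for the 86 genes, tumour against lymph node B cells (left) and lymph node Tregs against lymph node B cells (right), with colour for the call and the dashed line for equal levels. Ppp1r15a stands above the line in tumour B cells, and Pik3ap1, Plek and Rasgef1b stand far below it in Tregs.

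Between the cell types, in the lymph node libraries labelled WT, 31 of the 86 were called higher in Tregs and 32 in B cells, against 33.1% and 30.5% of all genes tested, and in tumour 26 and 40, against 32.8% and 31.3%. Tnfaip3 was higher in lymph node Tregs by 3.14 ± 0.061 (SE; adjusted p = 4.25e-26) on the log2 scale, Pde4d by 2.95 ± 0.14 (adjusted p = 1.17e-16), Ifrd1 by 1.98 ± 0.088 (adjusted p = 1.5e-17), Plcxd2 by 1.82 ± 0.11 (adjusted p = 4.5e-14) and Gadd45b by 1.79 ± 0.12 (adjusted p = 2.2e-13). On the B cell side stood Pik3ap1 at -4.99 ± 0.073 (adjusted p = 7.03e-29), Plek at -4.06 ± 0.083 (adjusted p = 1.43e-25), Rasgef1b at -3.75 ± 0.081 (adjusted p = 5.74e-25), Eif2ak3 at -2.02 ± 0.073 (adjusted p = 1.03e-19) and Mideas at -1.99 ± 0.051 (adjusted p = 2.82e-23). In tumour Tnfaip3, Pde4d, Gadd45b, Plk3 and Got1 led on the Treg side, with 3.502, 3.45, 2.82, 2.39 and 2.10. Rasgef1b, Pik3ap1, Zbtb10, Ccr7 and Eif2ak3 led on the B cell side, with -4.17, -3.70, -2.78, -2.38 and -2.13 (adjusted p between 7.66e-16 and 4.36e-09 for these 10). Genes called on the same side in both tissues numbered 22 for Tregs (71% of 31 and 84.6% of 26) and 28 for B cells (87.5% of 32 and 70% of 40). How many of all genes tested were called on the same side in both was not counted.

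Read against lists of genes by function, the 86 were spread unevenly. These lists were compiled with earlier results of these data known and from background knowledge, and all shares are of genes at the level floor, where 1.22% of the 7061 genes were among the 86. Immediate early genes of families other than those set aside contributed 14 of 30 (46.7%), genes reported to respond to tissue dissociation 18 of 73 (24.7%), and the integrated stress response outside the Atf family 5 of 23 (21.7%). The cell cycle brakes and survival kinases contributed 6 of 36, the circadian and glucocorticoid-responsive genes 3 of 18, TGF-beta feedback 3 of 20, NF-kB and TNF feedback 5 of 34 and mRNA decay 4 of 29. A gene can stand on several lists, so these counts overlap. Maff, Gem, Mafk, Ier2, Ifrd1, Tiparp, Csrnp1 and Per1 are on both the immediate early and the dissociation list. Each of the 6 cell cycle brake genes is also on the immediate early or the mRNA decay list. Of 42 splicing factors and kinases there were none, and of 52 genes on the histone modifier list 1 (1.92%), Kdm6b. At a share of 1.22% few would be met on lists of this size, so these counts are not low. The deacetylase Sirt1, among the 86, is not on that list.

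In the following counts over all genes of a list that could be tested, members of the 86 are included, which were chosen for being higher under the KO label. The calls use the same KO and WT values as that choice, so the counts are a description. A gene on several lists is counted under each. Of all genes tested 11%, 13.8%, 21.3% and 27.3% were called higher and 10.1%, 11.5%, 18.8% and 27.2% lower, in the order lymph node B, lymph node Treg, tumour B and tumour Treg. The immediate early list holds 14 of the 86. It had 32 of 44 genes called higher and 1 lower in lymph node B cells. In lymph node Tregs it had 34 of 50 and 2. In tumour the counts were 34 of 48 and 1 in B cells and 38 of 50 and 4 in Tregs, with medians of 0.85, 0.75, 1.13 and 1.02 on the log2 scale. The median over all genes tested lay between -0.03 and -0.01 in the 4 pairs. Genes reported to respond to dissociation were called higher in 60 of 89, 60 of 95, 70 of 94 and 78 of 96 and lower in 7, 11, 7 and 7, with 18 of the 86 on this list. For the mRNA decay list the numbers were smaller, at 13 of 32, 13 of 33, 18 of 33 and 15 of 33, with 4, 4, 5 and 5 called lower. Ubiquitin genes were called higher in 22 of 44, 23 of 46, 28 of 45 and 36 of 46, and lower in 1, 4, 2 and 4. The integrated stress response list had 9 of 26, 13 of 28, 17 of 29 and 18 of 31 called higher and 2, 2, 3 and 4 lower, with its highest median, 0.75, in tumour B cells. Not every list leaned as far in every pair. Cytokine feedback genes had 6 of 34, 9 of 36, 15 of 35 and 20 of 36 higher and 9, 5, 7 and 9 lower. Heat shock genes of other families had 6, 9, 22 and 15 of 31 called higher and 1, 2, 4 and 6 lower. Splicing genes had 13, 23, 23 and 18 of 42 called higher and 8, 4, 7 and 17 lower. The remaining lists are not given here.

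Gene structure was not used in the choice. From the deposited table (coordinates read as GRCm39), the 86 genes had a median exon length of 4378 bases (quartiles 2812 and 6015), against 5080 (3273 and 7586) in the other 6975 genes at the floor. The genomic span differed more, with a median of 14909 bases against 26650, and 30.2% of the 86 spanned under 10 kb against 20.4% of the others. At most 4 merged exon blocks were found in 30.2% of the 86 and 13.5% of the others, and the median was 7 blocks against 11. Hexim1 (chr11:103007057-103010551, 3495 bases), Ier2 and Frat2 had a single block. Gadd45b (chr10:80765907-80768038) spanned 2132 bases, Ppp1r15a (chr7:45172340-45175692) 3353 and Tob1 (chr11:94102280-94106321) 4042.

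The shortest by exon length were Kdm6bos at 840 bases, Ier2 at 1524, Rrad at 1577, Gadd45b at 1589 and Atg101 at 1597. The set was not short throughout. Rasgef1b had 13805 exon bases over a span of 511640, Pde4d 12006 over 1503514, Tsc22d2 11244, Skil 9694 and Slc38a2 8838. CPM is not scaled by length, so levels of different genes are not compared on it. Exons of Tgif2 lay under an opposite-strand gene for 69.6% of their bases, those of Tuba4a for 37.3%, Vps37b for 32.9% and Tagap for 23.2%. The library kit keeps strand, but whether the counting used it is not given, so the values of these genes are less certain.

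**Figure D5:**
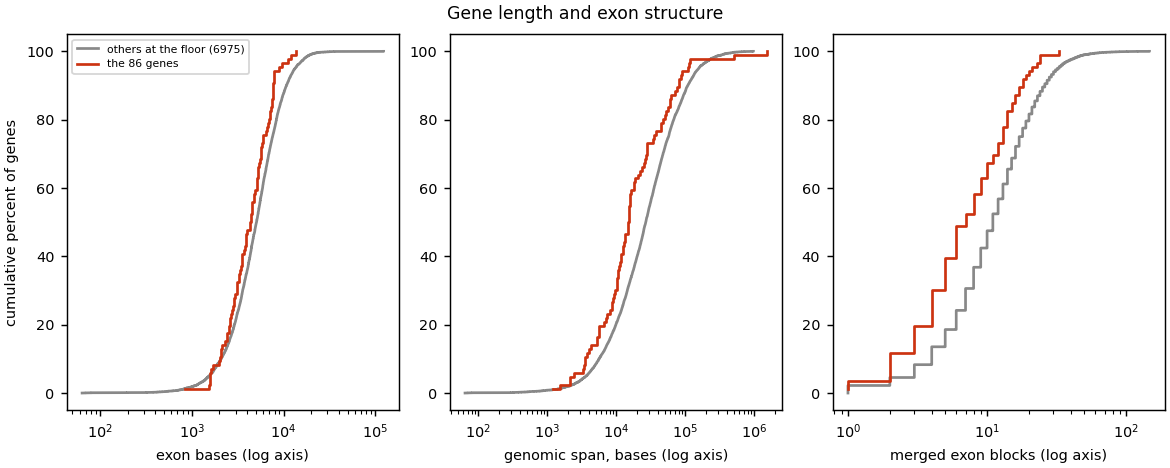
Cumulative percent of genes (vertical axis) by exon length in bases, genomic span in bases and number of merged exon blocks (log axes) for the 86 genes (red) and the other 6975 genes at the level floor (grey). The red curve lies to the left of the grey one over most of each panel, with medians of 14909 against 26650 bases of span and 7 against 11 exon blocks.

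The ratios ran on across the threshold without a gap. The smallest of a gene's 4 ratios was 1.402 in Ipmk, 1.407 in Iqcb1 and 1.410 in Lemd3, and just outside stood Pnp at 1.397, Utp14b at 1.396 and Slc15a2 at 1.392. Slc15a2 had ratios of 3.05, 2.98, 1.84 and 1.39, larger in lymph node B cells and Tregs than most of the 86. In all 123 genes passed the ratio in 3 of the pairs. With totals scaled by TMM in place of column sums 116 genes were selected, and with upper-quartile scaling 129, the 86 among them in each case. When each library was left out in turn, 67 of the 86 were selected every time.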

How the data were processed

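Sorted Tregs and B cells of tumour and draining lymph node were lysed in TRIzol, and a stranded mRNA kit was used for the libraries, per the labels' protocols. Per the submitters' processing notes, fastp 0.23.4, STAR 2.5.3a and featureCounts were used, and the builds GRCh38 and GRCm39 are named. The chromosomes of the table are those of the mouse, so its coordinates are read as GRCm39. The authors deposited raw counts of 56791 genes in 24 libraries, without normalization, and the exon coordinates and length of each gene. Not given in the sources used here are the strand setting, the treatment of duplicates and the annotation release. Of counts from 1 to 10, between 69.7 and 75.8% were even, so counts can exceed the number of fragments.

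CPM was the count over the column sum. The members, role groups, gene lists and tests were chosen with earlier results of these data known, and patterns already seen in them are not independent support. Tests were fitted over all genes with edgeR 4.0.16 (R 4.3.3): TMM scaling, the package's filter on low counts, two-sided quasi-likelihood F tests and Benjamini-Hochberg adjustment over all genes tested, with a call at an adjusted p under 0.05. Interactions used 12 libraries each, comparisons of libraries labelled WT 6. DESeq2 1.42.0 served as an alternative. The Treg tissue interaction and the tissue comparison in B cells labelled WT were tried on data simulated with the dispersions of their own libraries. The other fits were not. Values are given in full for members with the highest mean, the highest lowest ratio, the highest CPM, the extremes of exon length, the largest changes in each comparison and up to 5 per gene list. The others are named with their ratios, except 2 members that are counted throughout but not reported here by name. Promoter sequences are RefSeq's, build GRCm38.p6, matched by symbol. Entries for Tamalin, Kdm6b, Rrad, Gem and 17 further members were not used here. Alternatives were other scalings, thresholds, filters and sets of libraries.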

Additional observations from a re-analysis of the deposited data

Results flagged for a closer look

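The KO/WT difference of the following genes differed between tissues or cell types in an interaction fitted over all genes (edgeR, adjusted p under 0.05, values as differences of log2 ratios). Each ratio also entered the choice of the genes, and that choice can itself give a lean towards larger differences in tumour. The values are therefore a description. Between tumour and lymph node Tregs the differences were larger in tumour for Ier2 (1.29), Frat2 (1.21), Kdm6b (1.18), Atg101 (1.17) and Clp1 (1.16). They were smaller in tumour for Plek (-0.80), Gem (-0.58), Got1 (-0.34), Per1 (-0.29) and Sik1 (-0.28).

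Between tumour and lymph node B cells the differences were larger in tumour for Maff (2.995), Tnfaip3 (1.91), Tamalin (1.81), Gadd45b (1.78) and Gem (1.60), and smaller for Ppp1r15a (-0.68).

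Between cell types in tumour the difference was larger in Tregs for Ccdc117 (0.81), Ier2 (0.69), Sgk1 (0.68) and Brd2 (0.67). It was larger in B cells for Maff (-1.79), Tnfaip3 (-1.75), Gem (-1.75), Tamalin (-1.54) and Ifrd1 (-1.51).

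In lymph node it was larger in Tregs for Pik3ap1 (1.60), Plek (1.404), Maff (0.9955), Sik1 (0.97) and Rasgef1b (0.90), and larger in B cells for Ier2 (-0.76), Rilpl2 (-0.73), Plcxd2 (-0.66), Kdm6b (-0.57) and Tob1 (-0.52). B cell marker RNA moved with the label in the same Treg libraries, and its part was not tested.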

How the results depend on the processing

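The number of genes selected depended on the ratio: 132 genes at 1.3, 57 at 1.5 and 12 at 2. It was 116 with TMM totals, 129 with upper-quartile totals and 81 with group medians (75 of the 86 kept). Without the 2 tumour B libraries that stand apart it was 83, with Frat2, Sgk1 and Sirt1 lost. Leaving out 1 library at a time it was 81 to 90. The median ratios rose under TMM and upper-quartile totals to 1.726 and 1.762 for lymph node B cells, 1.905 and 1.899 for Tregs of lymph node, 2.708 and 2.901 for tumour B cells, and 2.764 and 2.892 for tumour Tregs. By construction these scalings move the median log2 ratio of all genes at the floor, in tumour B cells from -0.197 to 0.049 and 0.149. Without 1 library at a time the medians were 1.667 to 1.699, 1.811 to 1.828, 2.224 to 2.356 and 2.492 to 2.582 in the same order.

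With 12 libraries, members called ranged over single libraries left out from 59 to 63 (Treg tissue), 57 to 63 (B tissue), 36 to 52 (tumour cell type) and 23 to 28 (lymph node cell type). For libraries labelled WT they ranged from 47 to 54, 27 to 35, 61 to 64 and 60 to 69, in the order Treg tissue, B tissue, lymph node and tumour cell type. Of 74 results for single named genes, 70 stayed called under every alternative. Got1 and Sik1 (Treg tissue), Sgk1 (tumour cell type) and Tob1 (lymph node cell type) each missed the threshold with 1 library left out, at -0.27, -0.22, 0.55 and -0.41 (edgeR, adjusted p = 0.0598, 0.0515, 0.0709 and 0.0721). No direction reversed.

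Same-numbered libraries did not deviate together (correlation of deviations from -0.136 to 0.0785, none over 0.1), so the main fits used no pairing. Whether same-numbered libraries come from the same mouse cannot be told from this. Asking for the ratio in every same-numbered pair, a form of replicate block, left 53 genes. Depth limits the genes near 5 CPM most, and even counts mean that fewer independent fragments lie behind a value than its count.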
